A study of Mus musculus with 15 samples.

Results

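The genes described here are the immunoglobulin light-chain variable genes of leukemic mouse spleen cells, taken as every gene whose symbol begins with Igkv (kappa) or Iglv (lambda) in the expression tables. They numbered 76 of the 17029 genes listed, 73 of them kappa and 3 lambda, and 4 were pseudogenes. The vehicle (DMSO) table listed 68 of them and 73 were listed for ibrutinib, with 65 in both. Genes under the low-expression filter of the authors are not listed, and the gaps between the tables follow from this filter. The rule used the symbol alone and no measured value.

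Cells were released by mechanical disruption from tumor-burdened spleens of C57BL/6-background mice and kept in culture for 24 h with DMSO or with 5 µM ibrutinib, an inhibitor of the B-cell receptor kinase BTK, before total RNA was sequenced. All mice carried the Eμ-TCL1 transgene, in which an immunoglobulin heavy-chain enhancer drives human TCL1 in the B-cell lineage. In the Eμ-TCL1;p53R172H/+ group 1 Trp53 allele was also mutant, in every cell of the mouse. The DMSO table held 3 Eμ-TCL1 libraries (replicates 2, 3 and 4) and 5 Eμ-TCL1;p53R172H/+ libraries (replicates 1 to 5). The ibrutinib table held 3 Eμ-TCL1 libraries (replicates 1, 3 and 4) and 4 Eμ-TCL1;p53R172H/+ libraries (replicates 1, 3, 4 and 5). The labels do not say whether replicates came from separate mice, nor the age of the mice, so p-values measure the spread between these libraries. No step of sorting by a surface marker is described, and the cells left from the host spleen were part of each library.

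A B-cell makes its antibody light chain by joining a variable (V) gene segment to a joining (J) segment at the kappa or the lambda locus, and each cell normally keeps a single productive light chain. The V segment encodes most of the antigen-binding part of the chain and the constant gene Igkc or Iglc encodes the rest. In a spleen with many B-cell clones the light-chain transcripts come from many V genes, whereas the descendants of a leukemic clone all carry the V gene joined in their founder. The mouse has a large kappa locus and a small lambda locus, and most mouse B-cells use kappa. Leukemias of TCL1 transgenic mice resemble B-1 cells, a CD5-positive B-cell lineage in which certain heavy and light chain pairs recur, such as Ighv11-2 with Igkv14-126 and Ighv12-3 with Igkv4-91, both known for binding phosphatidylcholine on cell membranes.

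The values are normalized read counts on a per-library scale (CPM), set by the authors separately in each table, rounded to 0.1, and summing to between 756625 and 1359650 per library. Sequencing depth is therefore unknown and no counting error is given. Shares within a library do not depend on this scaling, and they are given as the percent of the summed signal of all light-chain variable genes.

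The B-cell content of the libraries differed. The mean of the B-cell markers Ms4a1, Cd79a and Cd79b was under 0.333 of its table's median in 5 libraries. These were Eμ-TCL1 replicate 2 (92.3) and Eμ-TCL1;p53R172H/+ replicates 1 and 2 (50.6 and 46.3) in DMSO, where the limit was 223, and Eμ-TCL1 replicate 1 (71.3) and Eμ-TCL1;p53R172H/+ replicate 1 (10) in ibrutinib, where it was 76.5. The pair of Eμ-TCL1 libraries was rich in myeloid transcripts, with 7 of 7 markers found and a sum of 28210.9 and 19536.9 against 23.8 to 1139.9 elsewhere, and the erythroid gene Hba-a1 was 1896.6 and 2144.6. The 4 erythroid markers found, of 6, summed to 4071.9 and 4245.6 there and to at most 77.9 in the rest. The T-cell receptor gene Cd3e was 113.5 and 282.9 in Eμ-TCL1;p53R172H/+ replicates 1 and 2 in DMSO and 2.8 to 12.8 in the other 6 libraries, and 82.0 and 96.0 in Eμ-TCL1;p53R172H/+ replicates 1 and 3 in ibrutinib. The 9 T-cell markers, all found, summed to 156.8 to 490.0 in Eμ-TCL1 and 195.2 to 2495.2 in Eμ-TCL1;p53R172H/+ in DMSO, and to 118.5 to 352.0 and 419.6 to 1289.2 in ibrutinib. The plasma-cell markers (7 of 7 found in DMSO, 6 of 7 in ibrutinib) summed to 514.8 to 1438.5 in Eμ-TCL1 and 142.7 to 1566.8 in Eμ-TCL1;p53R172H/+ in DMSO. In ibrutinib they summed to 375.5 to 1152.5 and 83.7 to 746.7. The lowest Eμ-TCL1 sums, 514.8 and 375.5, were those of the libraries rich in myeloid transcripts. The part of these other cells in the results was not tested. Of the marker lists for B cells, plasma cells, T cells, myeloid cells and erythroid cells, none had a listed marker at 0 in a whole group. In bulk RNA, fewer cells of a type and less RNA per cell cannot be told apart.

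Of the 8 genes that took at least 10% of the light-chain signal in any library, 7 could be placed on chromosome 6 of GRCm38 (GENCODE M21 annotation) by matching symbol and gene ID. Their V exons are shown because reads over them are what separates 1 leukemic light chain from another. Each is read 5′ to 3′ on the strand of the gene, and at most the last 300 bases of the exon are printed. Capitals mark the bases from the conserved second cysteine codon to the end of the V exon. The capitals after that codon are what the V gene contributes to the third complementarity-determining region.
Igkv14-126: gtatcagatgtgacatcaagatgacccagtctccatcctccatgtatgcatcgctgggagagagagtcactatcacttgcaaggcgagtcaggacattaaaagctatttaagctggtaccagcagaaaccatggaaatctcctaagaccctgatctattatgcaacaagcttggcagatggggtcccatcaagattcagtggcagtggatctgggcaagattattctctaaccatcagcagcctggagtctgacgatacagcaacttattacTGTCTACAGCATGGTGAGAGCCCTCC
Igkv4-91: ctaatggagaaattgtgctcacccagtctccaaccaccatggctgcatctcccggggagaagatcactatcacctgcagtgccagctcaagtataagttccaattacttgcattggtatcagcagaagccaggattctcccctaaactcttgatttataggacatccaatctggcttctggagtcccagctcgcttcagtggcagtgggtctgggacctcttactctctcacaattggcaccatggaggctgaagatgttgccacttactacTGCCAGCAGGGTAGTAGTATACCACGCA
Igkv12-89: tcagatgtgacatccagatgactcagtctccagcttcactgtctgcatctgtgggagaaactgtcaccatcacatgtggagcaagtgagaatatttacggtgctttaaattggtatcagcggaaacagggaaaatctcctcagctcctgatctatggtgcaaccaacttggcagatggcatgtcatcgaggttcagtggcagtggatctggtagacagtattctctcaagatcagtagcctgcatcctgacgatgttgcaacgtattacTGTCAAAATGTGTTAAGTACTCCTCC
Igkv12-46: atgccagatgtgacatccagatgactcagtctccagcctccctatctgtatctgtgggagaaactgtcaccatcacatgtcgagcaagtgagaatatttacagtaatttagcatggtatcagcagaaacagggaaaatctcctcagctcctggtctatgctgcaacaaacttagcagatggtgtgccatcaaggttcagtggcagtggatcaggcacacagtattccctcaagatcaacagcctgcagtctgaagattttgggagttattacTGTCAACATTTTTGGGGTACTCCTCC
Igkv12-44: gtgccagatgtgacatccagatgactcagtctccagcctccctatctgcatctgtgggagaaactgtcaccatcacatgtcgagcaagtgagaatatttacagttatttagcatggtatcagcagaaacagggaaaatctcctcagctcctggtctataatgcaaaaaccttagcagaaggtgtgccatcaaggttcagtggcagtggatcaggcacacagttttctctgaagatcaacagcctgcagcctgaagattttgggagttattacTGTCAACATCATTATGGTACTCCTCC
Igkv6-32: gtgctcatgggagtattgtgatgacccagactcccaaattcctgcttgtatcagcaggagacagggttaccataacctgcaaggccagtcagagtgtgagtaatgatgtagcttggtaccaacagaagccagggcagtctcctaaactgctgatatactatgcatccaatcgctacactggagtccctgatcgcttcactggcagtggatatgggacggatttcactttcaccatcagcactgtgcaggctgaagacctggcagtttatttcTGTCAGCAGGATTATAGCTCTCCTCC
Igkv3-5: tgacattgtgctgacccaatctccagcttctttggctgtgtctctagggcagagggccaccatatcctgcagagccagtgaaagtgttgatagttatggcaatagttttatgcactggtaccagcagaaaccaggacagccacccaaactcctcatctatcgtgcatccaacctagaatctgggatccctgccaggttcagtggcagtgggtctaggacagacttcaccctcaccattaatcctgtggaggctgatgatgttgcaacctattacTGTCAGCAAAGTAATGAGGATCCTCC

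These V exons lie at chr6:67896345-67896642 on the plus strand (Igkv14-126), chr6:68768555-68768863 on the minus strand (Igkv4-91), chr6:68834846-68835140 on the minus strand (Igkv12-89), chr6:69764523-69764820 on the minus strand (Igkv12-46), chr6:69814631-69814928 on the minus strand (Igkv12-44), chr6:70074024-70074321 on the minus strand (Igkv6-32) and chr6:70663586-70663895 on the plus strand (Igkv3-5). They are 295 to 310 bases long. Igkv12-89 and Igkv12-46 are members of one subgroup and share 85.6% of their aligned bases, whereas Igkv12-46 and Igkv12-44 share 94.6%, with a longest identical run of 55 bases. Igkv3-5 is most like Igkv3-10, with 95.5% identity and an identical run of 159 bases, so reads over that run cannot be told apart, yet Igkv3-10 reached at most 1.2 in any library. Among genes not annotated as pseudogenes, the nearest relative was Igkv14-111 for Igkv14-126 (90.9%), Igkv4-79 for Igkv4-91 (86.8%), Igkv6-17 for Igkv6-32 (86.3%) and Igkv12-41 for Igkv12-44 (95.7%).

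The eighth gene, listed as Igkv19-93, is given by its listed symbol with a caution. Its gene ID (ENSMUSG00000076530, listed as a pseudogene) bears the name Igkv11-106 in GENCODE M21, where the symbol Igkv19-93 belongs to another gene, so which of them the value counts is not settled here. The same disagreement of ID and symbol was found for 3 of the 76 genes (Igkv19-93, Igkv12-47 and Igkv4-56), and the other 73 matched. No sequence or position is given for these 3.

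In 13 of 15 libraries a single V gene took over 50% of the light-chain signal (the plot of shares per library). Only 6 genes led in any library, namely Igkv12-89, Igkv12-46, Igkv4-91, Igkv14-126, Igkv3-5 and Igkv19-93, and the leading gene stayed the same in 15 of 15 libraries when values were divided by exon length. The remaining members were low. Over all libraries, 7 of the 76 reached at least 100 CPM somewhere, 13 peaked between 10 and 100, 45 between 1 and 10, and 11 stayed under 1.

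**Figure D1:**
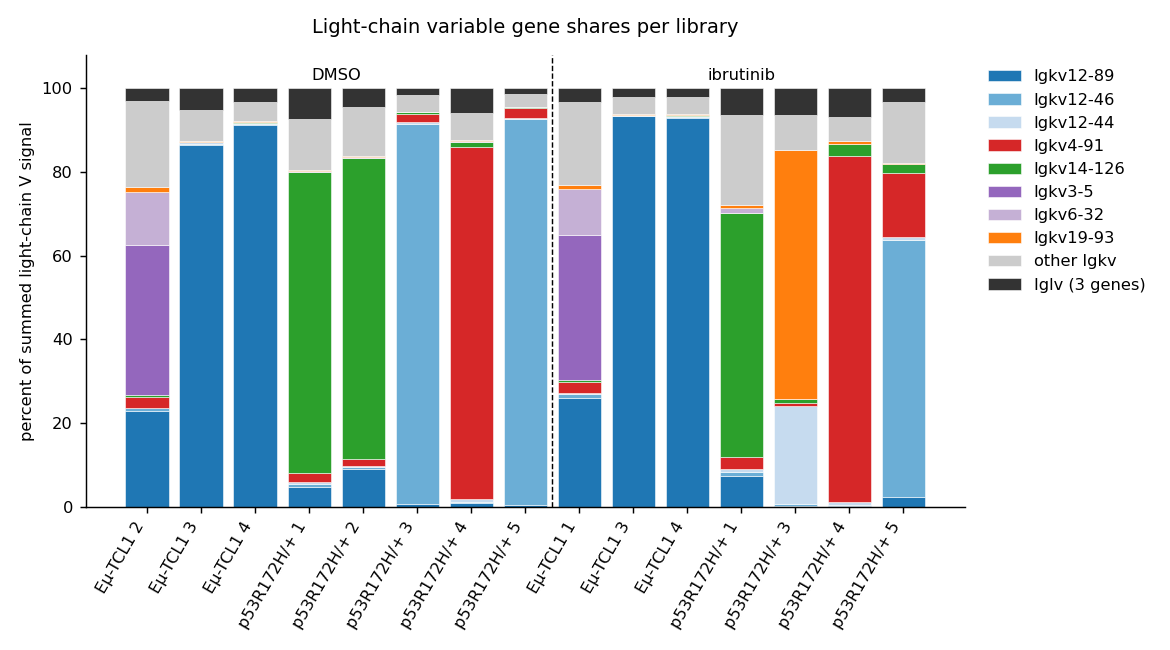
Percent of the summed light-chain variable signal (y axis) taken by the 8 leading kappa genes, the other kappa genes and the 3 lambda genes in each of the 15 libraries (x axis, genotype and replicate, p53R172H/+ standing for Eμ-TCL1;p53R172H/+). Igkv12-89 fills 86.4% to 93.4% of 4 Eμ-TCL1 libraries, whereas the p53R172H/+ libraries are led by 4 other genes.

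In DMSO, Igkv12-89 led Eμ-TCL1 replicate 3 with 916.7 CPM (86.4%) and replicate 4 with 1179.5 CPM (91.1%). Eμ-TCL1 replicate 2 was mixed, with Igkv3-5 at 416.3 CPM (36.0%), Igkv12-89 at 264.6 CPM (22.9%) and Igkv6-32 at 146.2 CPM (12.7%). It was among the libraries low in B-cell markers, and it held 51 members at 1 CPM or more, against 6 to 20 in the other 7 DMSO libraries. Summed over all members but the leading gene, it held 738.8 CPM, against 15.7 to 143.7 in the others.

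The 5 Eμ-TCL1;p53R172H/+ libraries in DMSO were led by 3 other genes. Igkv12-46 took 90.7% of replicate 3 (923.4 CPM) and 92.0% of replicate 5 (1076.9 CPM), and Igkv4-91 took 84.0% of replicate 4 (749.8 CPM). Igkv14-126, the light chain known to pair with Ighv11-2 in B-1 cells, led replicates 1 and 2 with 71.9% and 72.0%, but at only 40.2 and 55.8 CPM, in the libraries with low B-cell markers. The second gene of these 5 libraries took 2.02% to 9.03%.

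In ibrutinib, Igkv12-89 led Eμ-TCL1 replicates 3 and 4 with 1478.4 and 1413.1 CPM (93.4% and 92.9%), and replicate 1 showed the mixed pattern again, with Igkv3-5 at 293.6 CPM (34.7%), Igkv12-89 at 220.6 CPM (26.1%) and Igkv6-32 at 92.7 CPM (11.0%). The Eμ-TCL1;p53R172H/+ libraries were led by Igkv14-126 in replicate 1 (16.7 CPM, 58.4%), Igkv19-93 in replicate 3 (492.3 CPM, 59.5%), Igkv4-91 in replicate 4 (900.0 CPM, 82.7%) and Igkv12-46 in replicate 5 (287.9 CPM, 61.4%). In 2 of them a second gene was prominent. Igkv12-44 took 23.6% of replicate 3 (195.2 CPM), where its near relative Igkv12-46 was at 2.4 CPM, and Igkv4-91 took 15.4% of replicate 5 (72.3 CPM).

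Each leading light-chain gene went with its own leading heavy-chain variable gene. The 15 libraries had 6 leading light-chain genes, 6 leading heavy-chain genes and 6 combinations. Several of these libraries were close to alike over all genes (given below), so they are not independent instances of a pairing. Igkv12-89 led together with Ighv1-55, the TCL1-leukemia heavy chain fixed for comparison, which was 817.4 and 1093.9 CPM in Eμ-TCL1 replicates 3 and 4 in DMSO and 765.4 and 1146.3 CPM in ibrutinib. Igkv14-126 led together with Ighv11-2 (26.2, 27.1 and 12 CPM) and Igkv4-91 together with Ighv12-3 (606.3 and 476.0 CPM), the pairs known from B-1 cells. Igkv12-46 led together with Ighv6-3 (576.7, 664.9 and 337.5 CPM), Igkv3-5 with Ighv9-3 (506.7 and 328.3 CPM) and Igkv19-93, in a single library, with Ighv1-52 (124.2 CPM). In 8 libraries the second light-chain gene was a leader elsewhere, and in 6 of these 8 its heavy-chain partner was second too. Igkv12-89 was second in the mixed Eμ-TCL1 libraries, where Ighv1-55 was second with 198.6 and 162.7 CPM, and Igkv4-91 was second in Eμ-TCL1;p53R172H/+ replicates 3 and 5 in DMSO (20.6 and 26.1 CPM) and 5 in ibrutinib, where Ighv12-3 was second with 17.6, 15.8 and 40.5 CPM. In Eμ-TCL1;p53R172H/+ replicate 1 in ibrutinib both were near the floor, with 2.1 CPM of Igkv12-89 and 1.8 CPM of Ighv1-55. These pairs are read from summed transcripts of many cells, so that both chains lay in the same cells was not tested.

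The genotypes were compared gene by gene within each table, with limma on log2(CPM + 1) over all genes of the table and Benjamini-Hochberg adjustment. Log2 changes are Eμ-TCL1;p53R172H/+ minus Eμ-TCL1, and this scale understates the change of low genes. In DMSO, 1 of the 68 members passed an adjusted p of 0.05, and it was lower in Eμ-TCL1;p53R172H/+ (2 of all 16470 genes, 0.0121%, passed, both lower). An unadjusted p under 0.05 was found for 6 of the 68 members, where 8.17% of all genes had one. In ibrutinib 0 of 73 members passed, as did 0% of all genes, and 5 had an unadjusted p under 0.05, where 12% of all genes did. With sample quality weights 7 of 68 members passed in DMSO, where 4.88% of all genes did, and 2 of 73 in ibrutinib, where 0.17% did.

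The member that passed was Igkv12-89. In DMSO it was 264.6, 916.7 and 1179.5 CPM in the 3 Eμ-TCL1 libraries and 2.7, 7.0, 6.5, 8.0 and 6.4 CPM in the 5 Eμ-TCL1;p53R172H/+ libraries. In ibrutinib it was 220.6, 1478.4 and 1413.1 CPM in Eμ-TCL1 and 2.1, 2.4, 2.0 and 11.2 CPM in Eμ-TCL1;p53R172H/+. The lowest Eμ-TCL1 library was thus above every Eμ-TCL1;p53R172H/+ library in both tables, also where the gene did not lead. The log2 change was -6.60 (standard error 0.51, adjusted p = 0.00569) in DMSO, and -7.45 (standard error 0.80, adjusted p = 0.103) in ibrutinib, which missed the threshold. The DMSO call was lost without Eμ-TCL1 replicate 3 (-6.36, adjusted p = 0.0774) and the ibrutinib change passed without the mixed Eμ-TCL1 replicate 1 (-8.35, adjusted p = 0.0341). The DMSO call was also lost when the libraries most alike within Eμ-TCL1;p53R172H/+, replicates 1 with 2 and 3 with 5, were averaged and counted as 1 each (-6.49, adjusted p = 0.149). Without the libraries low in B-cell markers the change was -7.04 (adjusted p = 0.00953) in DMSO and -8.18 (adjusted p = 0.0714) in ibrutinib.

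**Figure D2:**
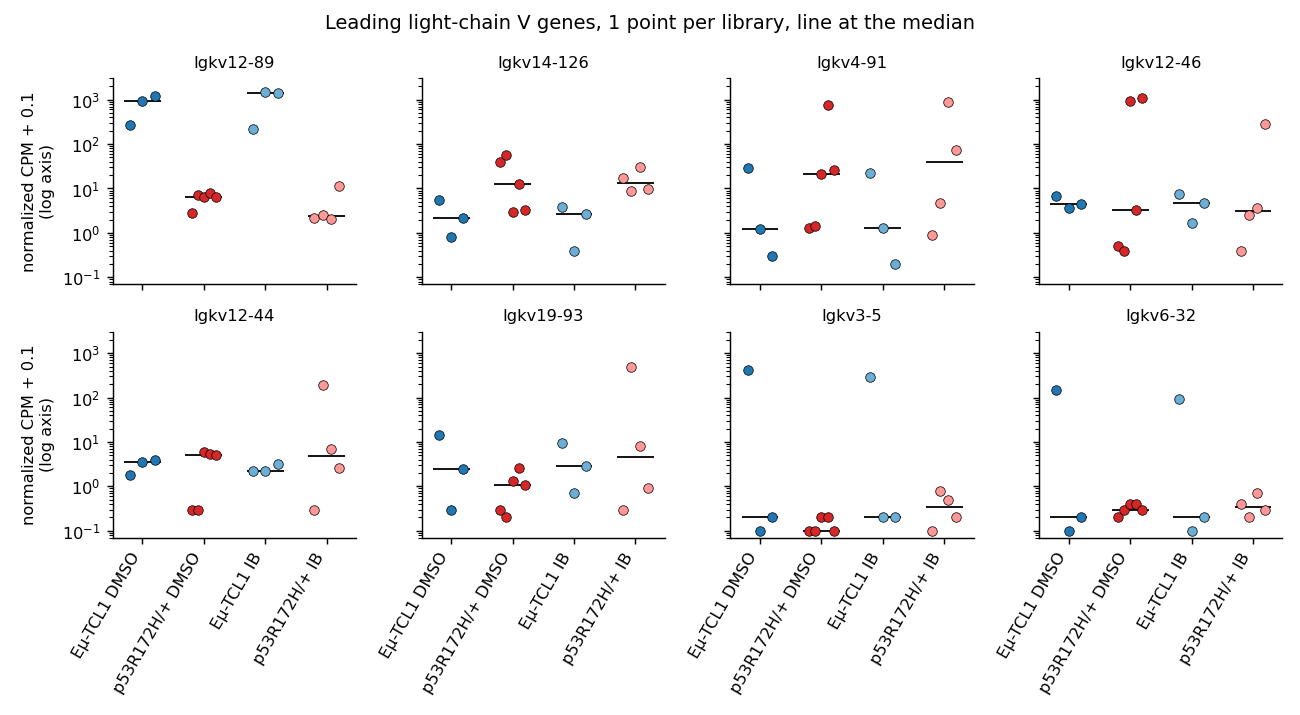
CPM plus 0.1 on a log axis for the 8 leading light-chain variable genes, 1 point per library and a line at the group median (p53R172H/+ stands for Eμ-TCL1;p53R172H/+, IB for ibrutinib). The genotypes separate in both treatments for Igkv12-89 and in ibrutinib also for Igkv14-126 (0.3 to 3.8 against 8.7 to 30.2 CPM).

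Of the other leading genes, Igkv4-91, Igkv12-46 and Igkv3-5 each had their high values in 1 or 2 DMSO libraries of a single genotype. Igkv4-91 was 28.7, 1.1 and 0.2 CPM in Eμ-TCL1 and 1.2, 1.3, 20.6, 749.8 and 26.1 CPM in Eμ-TCL1;p53R172H/+ in DMSO, groups that overlap (log2 change 2.14, standard error 1.95, adjusted p = 0.709). Igkv12-46 was 6.8, 3.5 and 4.3 CPM in Eμ-TCL1 and 0.4, 0.3, 923.4, 3.2 and 1076.9 CPM in Eμ-TCL1;p53R172H/+, with the low Eμ-TCL1;p53R172H/+ libraries under all Eμ-TCL1 libraries and the high ones far above (log2 change 2.06, standard error 2.51, adjusted p = 0.779). Igkv3-5 was 416.3 CPM in Eμ-TCL1 replicate 2 and at most 0.1 CPM in the other 7 DMSO libraries (log2 change -2.89, standard error 1.78, adjusted p = 0.645). In the genotype with the high libraries the SD was above the mean, at 401 ± 550 CPM (SD, n = 5) for Igkv12-46 in Eμ-TCL1;p53R172H/+ against 4.87 ± 1.72 CPM (SD, n = 3) in Eμ-TCL1, and no difference was detected for these genes.

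Igkv14-126 was the 1 member whose Eμ-TCL1;p53R172H/+ libraries were all above the Eμ-TCL1 libraries in a table. In ibrutinib it was 3.8, 0.3 and 2.6 CPM in Eμ-TCL1 and 16.7, 8.7, 30.2 and 9.4 CPM in Eμ-TCL1;p53R172H/+, and 6.68% of all genes separated in this direction. The log2 change was 2.44 (standard error 0.58, adjusted p = 0.234) and did not pass. In DMSO it was 5.4, 0.7 and 2.1 CPM in Eμ-TCL1 and 40.2, 55.8, 2.8, 12.4 and 3.2 CPM in Eμ-TCL1;p53R172H/+, where the groups overlapped (log2 change 2.09, standard error 1.0, adjusted p = 0.631). Its heavy-chain partner Ighv11-2 was 2.0, 0.2 and 1.7 CPM in Eμ-TCL1 and 12, 3.6, 14.1 and 5.8 CPM in Eμ-TCL1;p53R172H/+ in ibrutinib, without overlap. In DMSO Ighv11-2 overlapped, at 2.1, 0.3 and 1.3 CPM in Eμ-TCL1 and 26.2, 27.1, 2.0, 6.3 and 1.7 CPM in Eμ-TCL1;p53R172H/+.

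Separation in the opposite direction was found for 3 members in each table, where 2.93% (DMSO) and 5.97% (ibrutinib) of all genes separated that way, and for none in the higher direction in DMSO (3.52% of all genes). In DMSO these were Igkv12-89, Igkv1-110 (3.9, 4.9 and 3.5 CPM in Eμ-TCL1, at most 2.6 in Eμ-TCL1;p53R172H/+) and Igkv9-124 (at least 0.3 against at most 0.2 CPM). In ibrutinib they were Igkv12-89, the pseudogene Igkv13-87 (0.1, 17.3 and 8.5 CPM against 0 in 4 libraries) and Igkv14-111, a relative of Igkv14-126. Igkv14-111 was 5.3, 11.4 and 14.7 CPM in Eμ-TCL1 and 0.1, 1.6, 2.2 and 4.4 CPM in Eμ-TCL1;p53R172H/+ (log2 change -2.01, standard error 0.57, adjusted p = 0.299). The other gene with the lowest p per direction in ibrutinib, Igkv8-24, stayed between 0 and 1.9 CPM (log2 change 0.60, standard error 0.37, adjusted p = 0.546).

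Over the whole set the members' log2 changes had a median of -0.44 in DMSO, where 56 of 68 were negative, beside a median of 0.04 over all genes, of which 46.7% were negative. This direction rested on the mixed Eμ-TCL1 replicate 2, which was the highest of the 8 DMSO libraries for 43 of the 68 members. Without it the median was 0.11 with 22 of 68 negative. Without all libraries low in B-cell markers it was 0.21 with 16 of 68 negative. In ibrutinib the median was 0.03, with 33 of 73 negative, beside -0.05 over all genes, and without the mixed Eμ-TCL1 replicate 1 it was 0.37, with 15 of 73 negative. Leaving out Eμ-TCL1 replicate 3 or 4 or Eμ-TCL1;p53R172H/+ replicate 3 or 4 turned it to between -0.08 and -0.04. Of the 76 members 56 stayed under 10 CPM in every library. Whether a genotype change differed between the treatments was fitted over the 65 members in both tables, with 0 of 65 past the threshold and 0 with an unadjusted p under 0.05 (0% and 0.523% of all 15869 genes). The members' interactions had a median of 0.38, with 55 of 65 positive, beside -0.07 over all genes, of which 59.1% were negative, and without Eμ-TCL1 replicate 2 in DMSO the members' median was 0.00066, with 33 of 65 positive. The tables were scaled separately, so this fit rests on the scaling. It also counted the libraries of both treatments as independent. For Igkv12-89 the interaction was -0.85 (standard error 0.99, adjusted p = 1). The others with the lowest p per direction were low genes, Igkv5-45 (-0.72) among the negative changes, and Igkv14-100 (0.57) and Igkv4-72 (0.86) among the positive. Igkv5-45 was 0, 0, 6.2, 7.6 and 2.9 CPM in Eμ-TCL1;p53R172H/+ in DMSO and 0, 0, 1.8 and 3.5 CPM in ibrutinib. It was at most 0.1 CPM in the 6 Eμ-TCL1 libraries, and the groups overlapped (limma in DMSO, adjusted p = 0.639).

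Summed over the V genes, kappa transcripts outweighed lambda transcripts in every library. The summed kappa V signal in DMSO was 1119.9, 1006.4 and 1251.0 CPM in Eμ-TCL1 and 51.8, 74.1, 1000.9, 839.3 and 1153.8 CPM in Eμ-TCL1;p53R172H/+. In ibrutinib it was 818.1, 1550.8 and 1488.2 CPM in Eμ-TCL1 and 26.8, 774.3, 1014.5 and 453.6 CPM in Eμ-TCL1;p53R172H/+. The 3 lowest values were those of the Eμ-TCL1;p53R172H/+ libraries low in B-cell markers (51.8, 74.1 and 26.8 CPM). The other Eμ-TCL1;p53R172H/+ libraries overlapped with Eμ-TCL1 in DMSO, and in ibrutinib they reached from 453.6 CPM, under the lowest Eμ-TCL1 library, to 1014.5 CPM. The difference in mean log2 sum was -1.78 in DMSO (two-sided exact permutation test, p = 0.179, adjusted p = 0.457 over 16 single-value tests, smallest possible p 0.0179) and -1.98 in ibrutinib (p = 0.143, adjusted p = 0.457, smallest possible p 0.0286). The libraries low in B-cell markers were also left out, a choice made after seeing the data. Without them the difference was -0.18 in DMSO (exact permutation test, p = 0.4, adjusted p = 0.533). In ibrutinib it was -1.10 (exact permutation test, p = 0.2, adjusted p = 0.457). The few libraries left in ibrutinib did not overlap between genotypes. In both treatments too few libraries were left for this test to give a p under 0.05, so neither difference could pass.

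**Figure D3:**
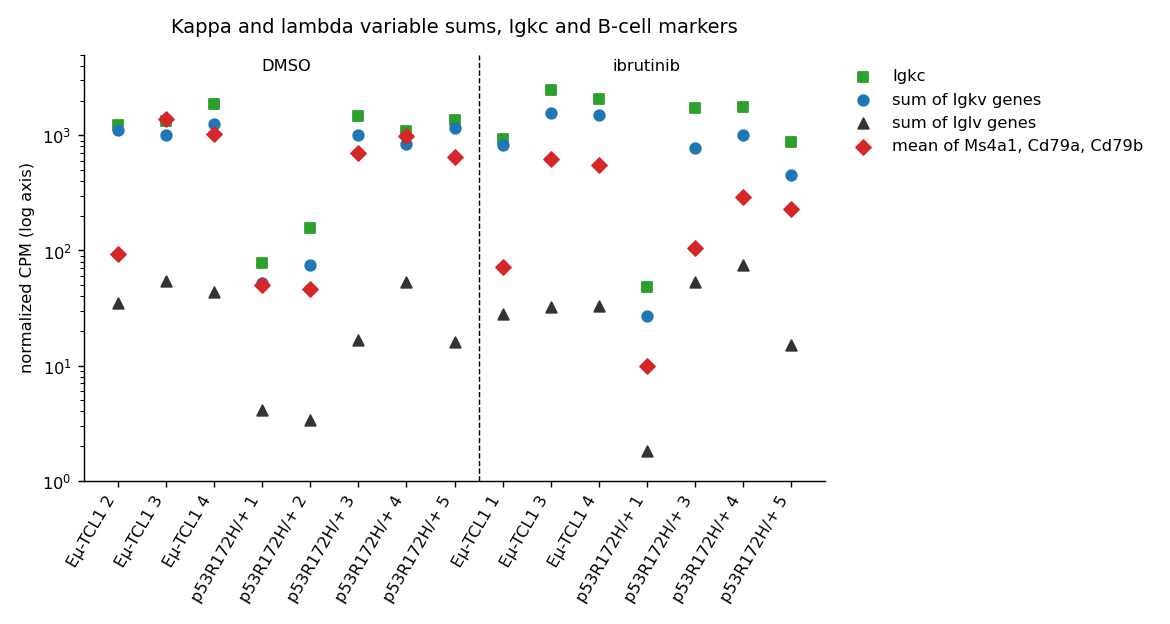
CPM on a log axis of the summed Igkv genes (circles), the summed Iglv genes (triangles), Igkc (squares) and the mean of 3 B-cell markers (diamonds) in each library. The 3 p53R172H/+ libraries with kappa sums of 26.8 to 74.1 CPM are low in all 4 measures, while the 2 mixed Eμ-TCL1 libraries keep kappa sums of 1119.9 and 818.1 CPM at low B-cell markers.

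The constant gene Igkc moved with the kappa V sum. It was 1234.2, 1338.1 and 1853.7 CPM in Eμ-TCL1 and 78.1, 156.4, 1472.7, 1090.7 and 1361.2 CPM in Eμ-TCL1;p53R172H/+ in DMSO, and 924.5, 2452.3 and 2052.5 CPM against 47.9, 1738.2, 1750.7 and 879.2 CPM in ibrutinib. The kappa V sum per unit of Igkc was 0.907, 0.752 and 0.675 in Eμ-TCL1 and 0.663, 0.474, 0.680, 0.770 and 0.848 in Eμ-TCL1;p53R172H/+ in DMSO. In ibrutinib it was 0.885, 0.632 and 0.725 in Eμ-TCL1 and 0.559, 0.445, 0.579 and 0.516 in Eμ-TCL1;p53R172H/+, without overlap. The mean log2 ratio differed by -0.20 in DMSO (exact permutation test, p = 0.446, adjusted p = 0.794) and by -0.50 in ibrutinib (p = 0.0286, the smallest this design can give, adjusted p = 0.343), so neither passed after adjustment. Here the ratio took the place of the kappa sum among the 16 single-value tests.

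The joining segments Igkj1 to Igkj5 lie between the V genes and Igkc, and their sum ranged from 2.9 to 195.0 CPM. It was highest in Eμ-TCL1 replicate 3 (195.0 in DMSO and 194.9 in ibrutinib) and Eμ-TCL1 replicate 4 (149.6 and 177.1), and 29.5 and 17.7 in the mixed Eμ-TCL1 libraries. Of the 13 constant and joining genes fixed for comparison 7 were listed, and 0 of 7 passed between genotypes in either table, although 7 of 7 log2 changes were negative in both (medians -1.43 and -1.69). Of the receptor partners 3 of 4 were listed (Ighm, the mu heavy chain, and Cd79a and Cd79b, the signaling subunits), with 0 past the threshold and medians of -1.06 and -1.53. The 4 recombination and editing genes were all listed, with 0 past the threshold. Rag1, part of the recombinase that joins V to J, was 23.8 and 19.8 CPM in the mixed Eμ-TCL1 libraries and at most 2.5 CPM in the other 13. Of the surrogate light-chain genes of precursor B-cells, 2 of 3 were listed in DMSO and 1 of 3 in ibrutinib, and Vpreb1 was at most 0.8 CPM.

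The 3 lambda V genes, Iglv1, Iglv2 and Iglv3 on chromosome 16, together made 1.38% to 7.33% of the light-chain V signal, with the kappa V sum 12.6 to 71.2 times as high. Their sum in DMSO was 35.2, 54.0 and 43.5 CPM in Eμ-TCL1 and 4.1, 3.4, 16.8, 53.3 and 16.2 CPM in Eμ-TCL1;p53R172H/+, and in ibrutinib 28.3, 32.2 and 32.7 CPM against 1.8, 53.5, 74.3 and 15 CPM. The groups overlapped in both tables. The difference on the log2(sum + 1) scale was -1.78 in DMSO (exact permutation test, p = 0.107, adjusted p = 0.429) and -0.63 in ibrutinib (p = 0.8, adjusted p = 0.895), and the latter changed sign, to 0.27, without the libraries low in B-cell markers. The contrast of kappa with lambda is of V genes alone. The lambda constant gene Iglc2 was 493.7 CPM beside 1338.1 of Igkc in Eμ-TCL1 replicate 3 in DMSO, and 54.7 beside 1234.2 in replicate 2. The lambda V sum per unit of Iglc2 was 0.0399 to 0.782, against 0.445 to 0.907 for the kappa V sum per unit of Igkc.

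The lambda genes did not move in step. Iglv1 was highest in Eμ-TCL1;p53R172H/+ replicate 3 in ibrutinib (35.1 CPM), the library led by Igkv19-93. Iglv2 was highest in Eμ-TCL1;p53R172H/+ replicate 4 in DMSO and in ibrutinib (18.4 and 50.8 CPM), the libraries led by Igkv4-91, and was at most 1.9 CPM in Eμ-TCL1 replicates 3 and 4. Iglv3 was highest in Eμ-TCL1 replicate 3 in DMSO (39.5 CPM) and at 22.9, 22.4 and 20.5 CPM in the other Eμ-TCL1 libraries led by Igkv12-89. It was also 20.5 and 15.9 CPM in Eμ-TCL1;p53R172H/+ replicate 4 in DMSO and in ibrutinib, led by Igkv4-91. As a percent of the light-chain signal, lambda in ibrutinib averaged 2.51 ± 0.72 (SD, n = 3) for Eμ-TCL1 libraries and 5.70 ± 1.68 (SD, n = 4) for Eμ-TCL1;p53R172H/+ libraries, a difference of 3.19 percentage points (exact permutation test, p = 0.0857, adjusted p = 0.429). In DMSO it was 3.83 ± 1.10 (SD, n = 3) and 4.15 ± 2.62 (SD, n = 5).

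The evenness of V gene use was summarised as the effective number of genes, the inverse of the summed squared shares, which is 1 when a single gene takes all the signal. It ran from 1.15 in Eμ-TCL1 replicate 3 in ibrutinib to 4.94 in Eμ-TCL1 replicate 2 in DMSO, with 4.87 in Eμ-TCL1 replicate 1 in ibrutinib. In Eμ-TCL1;p53R172H/+ it was 1.91, 1.89, 1.21, 1.41 and 1.18 in DMSO and 2.84, 2.43, 1.46 and 2.47 in ibrutinib, groups that overlap. Between treatments the means of Eμ-TCL1;p53R172H/+ differed by 0.78 genes, with p = 0.0556 by a two-sided exact permutation test (adjusted p = 0.429), which did not pass. The treatment tests of this and the next measure counted every library as independent. Yet 5 of the 6 same-numbered pairs between treatments had the same leading gene. In Eμ-TCL1 the treatments differed by -0.10 genes (exact permutation test, p = 0.5, adjusted p = 0.8). Between genotypes the difference was -0.97 genes in DMSO (exact permutation test, p = 0.429, adjusted p = 0.762) and -0.09 in ibrutinib (p = 1, adjusted p = 1).

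The share of the leading gene in Eμ-TCL1;p53R172H/+ was 71.9%, 72.0%, 90.7%, 84.0% and 92.0% in DMSO and 58.4%, 59.5%, 82.7% and 61.4% in ibrutinib. The mean was 82.1% ± 9.78 (SD, n = 5) and 65.5% ± 11.5 (SD, n = 4), a difference of -16.6 percentage points (exact permutation test, p = 0.0714, adjusted p = 0.429). In Eμ-TCL1 it was 71.2% ± 30.5 (SD, n = 3) in DMSO and 73.7% ± 33.8 (SD, n = 3) in ibrutinib, and no split of 3 against 3 can give a p under 0.1. Between genotypes the share differed by 10.9 percentage points in DMSO (exact permutation test, p = 0.554, adjusted p = 0.8) and by -8.17 in ibrutinib (p = 0.686, adjusted p = 0.844). None of the 16 single-value tests passed. The smallest unadjusted p of these exact permutation tests was 0.0556, for the effective number between treatments in Eμ-TCL1;p53R172H/+. When the ratio to Igkc took the place of the kappa sum, the smallest was 0.0286, for that ratio in ibrutinib.

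Light-chain profiles were compared between libraries by the percent of signal shared, the sum over the 65 genes in both tables of the lower of both shares. Libraries of the same genotype and number in both treatments shared 97.8% (Eμ-TCL1 replicate 4), 93.0% (Eμ-TCL1;p53R172H/+ replicate 4), 92.9% (Eμ-TCL1 replicate 3), 82.3% (Eμ-TCL1;p53R172H/+ replicate 1) and 69.3% (Eμ-TCL1;p53R172H/+ replicate 5), and each of these pairs had the same leading gene. The sixth pair, Eμ-TCL1;p53R172H/+ replicate 3, shared 5.35%. Igkv12-46 was 923.4 CPM in its DMSO library and 2.4 CPM in its ibrutinib library, Igkv19-93 was 1.2 and 492.3 CPM, and Ighv6-3 gave way to Ighv1-52 as the leading heavy-chain gene. Xist and the Y-linked gene Ddx3y also differ between these libraries (1491.3 and 0.1 CPM in DMSO, 1.0 and 82.1 CPM in ibrutinib), so the number does not join the same mouse.

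**Figure D4:**
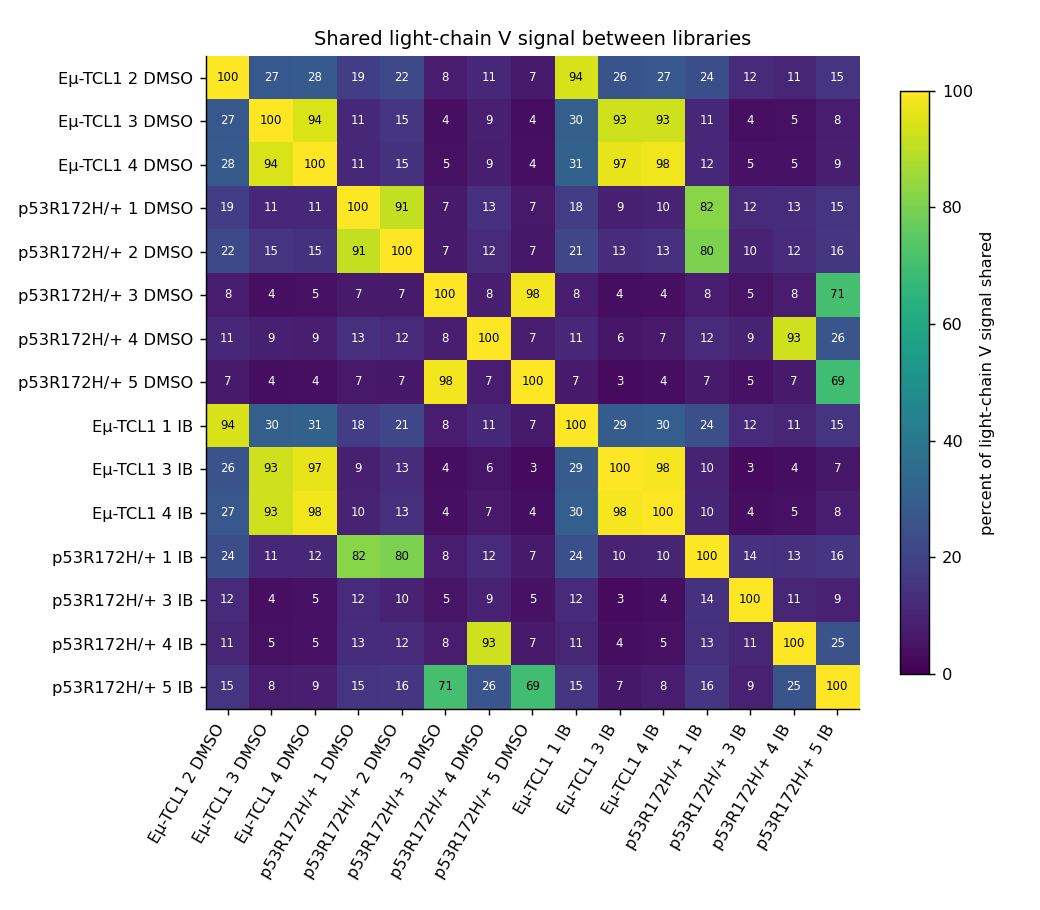
Percent of light-chain variable signal shared by each pair of the 15 libraries (color and printed number, rounded to whole percent), ordered by treatment, genotype and replicate. High values off the diagonal mark libraries led by the same gene, including same-numbered pairs of both treatments and pairs with unlike numbers.

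Some libraries with unlike numbers were as similar. Eμ-TCL1 replicate 2 in DMSO and Eμ-TCL1 replicate 1 in ibrutinib shared 94.0% of the light-chain signal, including the order Igkv3-5, Igkv12-89, Igkv6-32 and Igkv3-12 (47.2 and 45.2 CPM). Over 10626 genes, after the mean of each gene over all libraries was subtracted, their log2 values had a correlation of 0.970, against 0.543 and 0.542 for Eμ-TCL1 replicates 4 and 3 in both treatments (a description across genes, which are not independent replicates). Within the Eμ-TCL1;p53R172H/+ group in DMSO, replicates 3 and 5 shared 98.2% (correlation 0.850) and replicates 1 and 2 shared 91.0% (0.883). Eμ-TCL1 replicates 3 and 4, led by Igkv12-89, shared 94.2% in DMSO (correlation 0.581) and 98.5% in ibrutinib (0.497). Across treatments, Eμ-TCL1 replicate 4 in DMSO shared 96.7% with replicate 3 in ibrutinib, and replicate 3 in DMSO shared 92.8% with replicate 4 in ibrutinib. Eμ-TCL1;p53R172H/+ replicate 5 in ibrutinib shared 70.7% with replicate 3 in DMSO and 69.3% with replicate 5. The 27 pairs of unlike genotype between treatments shared 3.06% to 24.1%, and in 0 of 27 was the leading gene the same.

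The kappa locus holds V genes in both orientations relative to the J segments. Of the 70 kappa members placed by matching symbol and ID, 27 lie in the same orientation as Igkj and 43 in the opposite one, which rearranges by inversion. Leading genes came from far apart on the locus, with Igkv14-126 at 2826 kb before Igkj1, Igkv4-91 at 1953 kb, Igkv12-89 at 1887 kb, Igkv12-46 at 958 kb and Igkv3-5 at 58.7 kb. Genes in the opposite orientation took 86.3% to 97.1% of the light-chain signal in the libraries led by Igkv12-89, Igkv12-46 or Igkv4-91, and 12.5% to 24.5% in those led by Igkv14-126. In the mixed Eμ-TCL1 libraries they took 48.1% and 49.3%. In Eμ-TCL1;p53R172H/+ replicate 3 in ibrutinib 59.6% of the signal was not placed, since it was listed as Igkv19-93 for the most part.

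**Figure D5:**
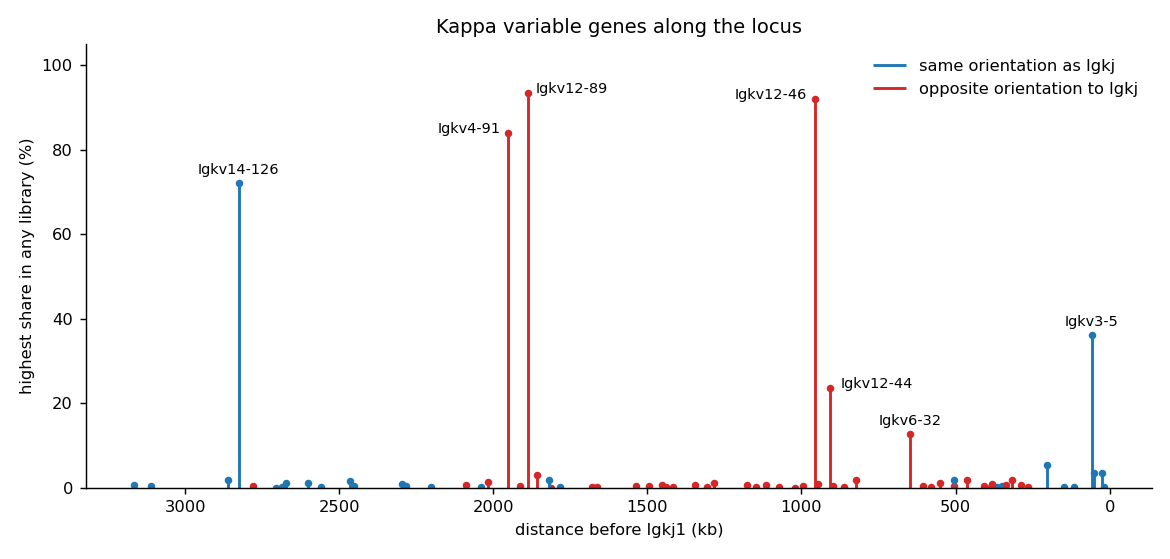
Highest share of the light-chain signal in any library (y axis, percent) for each placed kappa variable gene, by its distance before Igkj1 in kb (x axis) and colored by its orientation to the Igkj segments. Igkv12-89 and Igkv4-91 stand side by side at 1887 and 1953 kb, and the remaining leaders are spread from 58.7 kb to 2826 kb, with most other genes close to 0%.

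Next to Igkv12-89 on the side of the J segments lie Igkv1-88, 27.0 kb on, and the pseudogene Igkv13-87, 67.7 kb on. Igkv1-88 was 31.9, 18.3, 20.6 and 19.1 CPM in the 4 Eμ-TCL1 libraries led by Igkv12-89 and at most 7.0 CPM in the other 11. Igkv13-87 was 19.7, 6.9, 17.3 and 8.5 CPM in those 4 libraries and at most 0.3 CPM in the others. In the mixed Eμ-TCL1 libraries, where Igkv12-89 was second, both neighbours were under 1 CPM (0.8 and 0.5 for Igkv1-88, 0.1 in both for Igkv13-87). These neighbours were chosen for their place beside Igkv12-89 with their values already known, so no test is given for them.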

How the data were processed

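RNA from cultured spleen cells of 15 samples was sequenced by the authors on an Illumina platform. According to the submitters' processing notes and methods, reads were aligned with TopHat2 2.0.12 and handled with SAMtools 0.1.19, counted per gene with HTSeq on GENCODE M2 (GRCm38), filtered for low CPM, and normalized with edgeR. Signal values as deposited are CPM on an effective library size that was set for each treatment table alone. Whether reads that match several V genes were kept is not given in the sources used here. From these values, genes were compared between genotypes with limma 3.58.1 in R 4.3.3 (lmFit, eBayes with a trend) on log2(value + 1) over all genes of a table, and the interaction over the 15869 genes in both. The fits were tested on simulated data with changes placed in genes of higher mean and lower spread. That test does not cover genes near the floor or high in only a few libraries. For measures with 1 value per library, an exact permutation test (two-sided) was used, with Benjamini-Hochberg adjustment over 16 tests. Pseudocounts of 0.1 and 5, a mean of at least 5, quantile normalization, quality weights, a replicate block, each library left out, genes in both tables alone, values under 1 set to 0 and Igkc as the divisor were tried, and values per exon length, averaged like libraries (correlation over 0.8) and libraries low in B-cell markers left out (mean of 3 markers under 0.333 of the table median) were chosen after seeing the data. 1 further B-cell marker, planned as part of that mean, is not reported here. The members, gene lists and tests were chosen with earlier results of these data known. The genes named are all that led a library or took at least 10% of its light-chain signal, all past the threshold or the 2 of lowest p per direction, Igkv14-126, Igkv4-91, Igkv12-89 and all lambda genes. Igkv1-110, Igkv9-124, Igkv13-87, Igkv1-88 and Igkv3-12 were named after their values were seen. V exons and positions are those of GENCODE M21 (GRCm38), and the pairwise identity was computed with Biopython 1.88. Python 3.11.15 with matplotlib 3.10.9 made the plots.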

Additional observations from a re-analysis of the deposited data

Results flagged for a closer look

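Among 46 groups of 4 or 5 Eμ-TCL1;p53R172H/+ libraries tested, 11 held a library whose gap to the nearest of the others was large for the range of the group (Dixon's criterion, which chance meets in about 1 of 20 independent groups). That rate is no yardstick for the count here. Many of the genes were named because they were high in some library, and the groups are not independent of each other. In DMSO, replicate 4 stood apart with Igkv4-91 at 749.8 CPM, Igkv14-111 at 15.1 CPM, Iglv2 at 18.4 CPM and a lambda sum of 53.3 CPM. In ibrutinib, replicate 3 stood apart with Igkv19-93 at 492.3 CPM and Igkv12-44 at 195.2 CPM. Replicate 4 stood apart with Igkv4-91 at 900.0 CPM and with the share of its leading gene, 82.7%. Replicate 5 stood apart with Igkv12-46 at 287.9 CPM, Igkv12-89 at 11.2 CPM and a lambda percent of 3.20, the lowest of its group.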

How the results depend on the processing

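The number of light-chain genes past the threshold between genotypes in DMSO was 1, and 7 with quality weights (which called 4.88% of all genes), 0 with like libraries averaged and 0 to 2 with each library left out. In ibrutinib it was 0, and 2 with quality weights (0.17% of all genes) and 0 to 2 with each library left out. The ibrutinib change of Igkv12-89 passed with quality weights (-8.22, adjusted p = 0.00806). The interaction stayed at 0 under all alternatives run. Same-numbered libraries of both genotypes had correlations of deviations of 0.19, 0.28 and 0.05 in DMSO, where unlike numbers gave -0.28 to 0.27. In ibrutinib they were -0.05, -0.20 and -0.18, where unlike numbers gave -0.25 to 0.27. Each DMSO value was low, yet the highest for its Eμ-TCL1 library. Whether the numbers pair the DMSO samples is thus not settled. With a replicate block the count was 0 in DMSO, where Igkv12-89 was -6.34 (adjusted p = 0.76), and 0 in ibrutinib. None of the single-value differences below passed in the main tests or under these alternatives. The genotype tests could not pass once the libraries low in B-cell markers were left out, as too few libraries remained. Without the libraries low in B-cell markers, the sign turned for the lambda sum in ibrutinib (0.27), the effective number between genotypes in DMSO (0.00083) and ibrutinib (0.97), and the lambda percent in DMSO (-1.22). With each library left out, the sign also turned for the lambda sum in ibrutinib (-1.25 to 0.33), the leading share between genotypes in DMSO (-6.64 to 20.9) and ibrutinib (-27.7 to 1.69) and between treatments in Eμ-TCL1 (-15.1 to 22.0), the effective number between genotypes in DMSO (-1.62 to 0.25) and ibrutinib (-0.72 to 1.15) and between treatments in Eμ-TCL1 (-1.34 to 1.12), and the lambda percent in DMSO (-0.48 to 1.0). The cause was not tested. The other 244 values of these counts and differences, and 155 values of the named genes, kept their direction and their side of the threshold. Sex, B-cell content and genotype are in part confounded in these libraries and cannot be told apart, and the unknown depth limits what can be said of genes near 0.1 CPM.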

Other observations

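In Eμ-TCL1;p53R172H/+ replicate 5 in ibrutinib the minor kappa gene Igkv4-91 stood at 72.3 CPM beside 40.5 CPM of Ighv12-3, its known B-1 partner, whereas the DMSO libraries that it resembled most (replicates 3 and 5) had 20.6 and 26.1 CPM of Igkv4-91 and 17.6 and 15.8 CPM of Ighv12-3. Igkv14-126 stood at 30.2 CPM in replicate 4 in ibrutinib, above the 16.7 CPM of the library it led, and Ighv11-2 was 14.1 CPM there.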
